A study of Mus musculus with 17 samples.

Results

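The genes described here code for the machinery that builds ribosomes in the nucleolus, together with Myc, a transcription factor known for raising the expression of that machinery. They were chosen as the probe sets of the deposited table that are annotated to exactly 1 of 40 listed symbols of nucleolar ribosomal RNA processing and RNA polymerase I factors. Of these, 39 were measured, by 42 probe sets, among 19751 genes in all (21354 probe sets with a single symbol), and Noc2l, which had no probe set with its symbol alone, is not analysed here. The cells were plasmacytoid dendritic cells (pDC), a dendritic cell type that senses DNA through TLR9 and makes large amounts of type I interferon, taken from the bone marrow of C57BL/6 mice and sorted for intermediate CD11c together with B220 and Siglec-H. All 6 groups were cultures of these cells, with no genetic change named in the labels. Cells kept in medium alone gave 2 arrays (replicates 1 and 3). The other 5 groups had 3 arrays each: LIF alone, either CpG class alone (CpG-A or CpG-B), and either class with LIF, which makes 17 arrays. LIF (leukaemia inhibitory factor, a cytokine of the interleukin-6 family) was given at 10 ng/ml for 20 to 24 h in total and began 1 h before CpG where both were used. CpG-A and CpG-B are 2 classes of synthetic DNA ligand of TLR9. Each was used at 6 µg/ml, with 19 to 23 h of exposure, and the design text of the series gives slightly different times. The labels do not give the age or sex of the mice, and are silent on pooling and on whether each replicate came from its own mouse, so the p-values measure a spread between arrays that may be technical.

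Ribosome production starts in the nucleolus, where RNA polymerase I copies the ribosomal DNA into a long precursor. Small nucleolar ribonucleoproteins modify that precursor, the small subunit processome folds and cleaves it, and further factors, among them the PeBoW complex, mature the large subunit before both subunits leave for the cytoplasm. In immune cells the machinery is known to be raised when a resting cell is activated to grow, often together with MYC. CpG-A is known as the class that induces type I interferon in pDC, and CpG-B as the class that drives their maturation.

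The deposited values have lost their decimal marks, so a value's power of 10 is unknown and its log2 is known only up to multiples of 3.32. Each difference is therefore printed as the reading closest to 0 (the nearest reading), in log2 units, which lies between -1.66 and 1.66 (up to 3.16-fold), with its standard error (SE) from a fit over all 17 arrays. The threshold for a call was 0.05 on the adjusted p (limma with Benjamini-Hochberg adjustment over all 19751 genes). A called difference was read as higher or lower only where its size was at most 1.11 (2.15-fold), since the alternative would be an opposite change of 4.64-fold or more. Beyond that size the direction is called open and both readings are given. Values of single arrays are log2 differences from the mean of the 2 medium arrays, with each gene's circle of possible values cut at the widest gap between the 17 arrays. That choice makes all differences of a gene add up, but a cut in the wrong place would turn a group upside down. The widest gap was between 0.72 and 2.18 for the measured genes, with a median of 1.34, against a median of 2.46 over all genes, so the cut is less secure here than for most genes. Standard deviations within groups had a median of 0.20 for these genes and 0.19 over all genes. Expression levels cannot be read from such a table, so no gene's level is set against another's. For the same reason the presence of pDC markers could not be checked by level, only their differences between groups.

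CpG-B moved nearly the whole machinery, while in CpG-A vs medium the share of the 39 genes called was near that of all genes. In CpG-B vs medium, 32 of the 39 genes were called, where 19.2% of all genes were called. Of these, 14 read higher (6.94% of all genes did), 0 read lower (7% of all genes did, and 36 of the 39 genes had an unadjusted p under 0.05 in either direction) and 18 were open in direction (5.27% of all genes). In CpG-A vs medium, 8 were called against 16.7% of all genes, with 1 higher (4.91%), 6 lower (7.15%) and 1 open (4.64%). The 6 lower ones were Fbl (fibrillarin), Wdr75 and the 4 box H/ACA genes, and 4 of the 8 calls were lost without replicate 3 of medium. Set directly against each other, CpG-A and CpG-B differed in 36 of the 39 genes, against 13% of all genes, with 18 lower in CpG-A (6.14%), 1 higher (4.42%) and 17 open (2.4%). In LIF vs medium 0 of the 39 were called, against 0.81% of all genes by limma (0.273% higher, 0.223% lower and 0.314% open), and 4 had an unadjusted p under 0.05. Every one of these p-values compares RNA from bulk cultures, in which fewer cells of a type and less RNA per cell cannot be told apart.

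**Figure D1:**
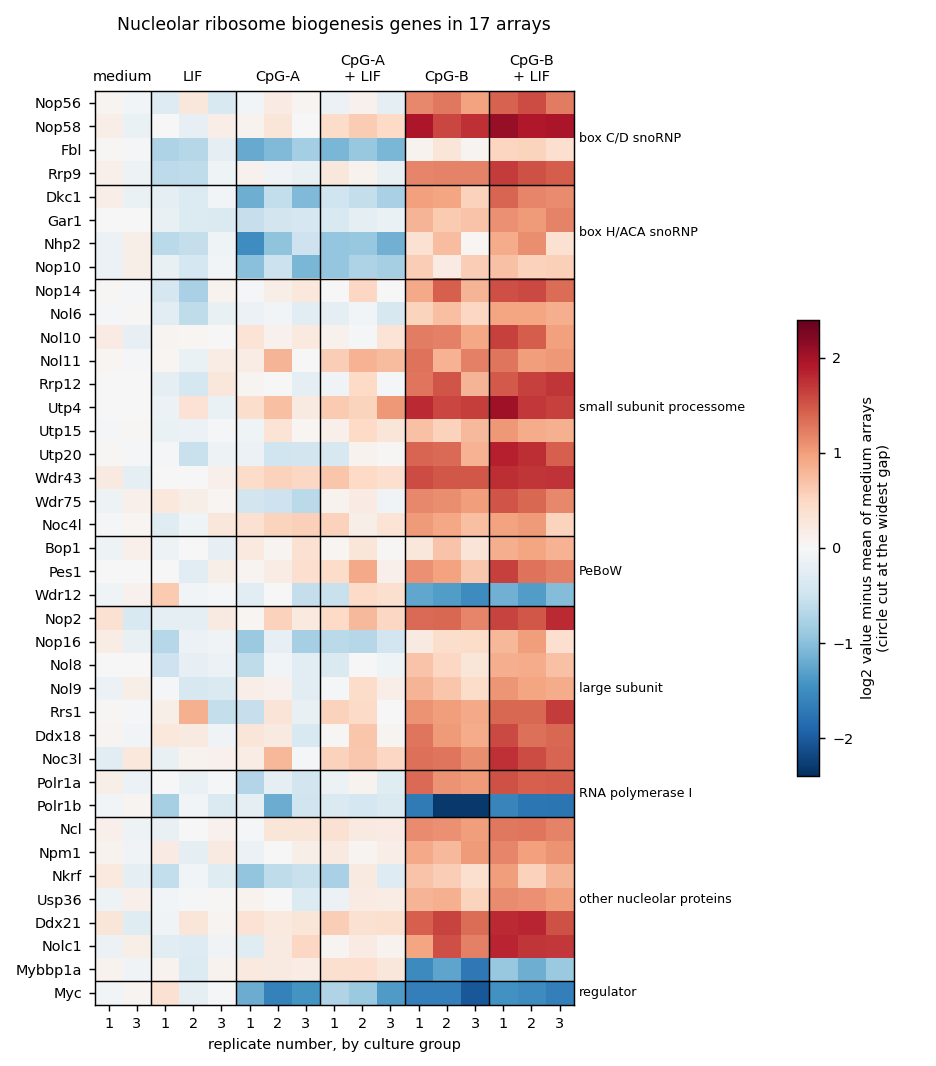
Log2 value of each of the 39 measured genes (rows, grouped by role) in each of the 17 arrays (columns, by culture group and replicate number), minus the mean of the medium arrays, with the circle of each gene cut at its widest gap. CpG-B and CpG-B + LIF arrays stand above the other arrays for most rows, Wdr12, Polr1b, Mybbp1a and Myc are drawn below medium there under this cut, and Fbl, Dkc1, Nhp2 and Nop10 are below medium in the CpG-A arrays.

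The median over the 39 genes separated the CpG-B arrays from the other arrays. It was 0.99, 0.95 and 0.81 in the CpG-B arrays and 1.29, 1.17 and 1.14 in the CpG-B + LIF arrays. In the medium arrays it was 0.02 and -0.02, in the LIF arrays -0.16, -0.17 and -0.06, in the CpG-A arrays -0.06, 0.06 and -0.17, and in the CpG-A + LIF arrays 0.02, 0.21 and 0.03. The 6 arrays with CpG-B thus lay well above the other 11, which overlapped each other around 0, and all 3 CpG-B + LIF arrays lay above all 3 CpG-B arrays. Under the same cut, every CpG-B array was above every medium array for 34 of the 39 genes, against 19.3% of all genes, the exceptions being Nhp2, Wdr12, Polr1b, Mybbp1a and Myc. Every CpG-B array was above every CpG-A array for 34 genes as well, against 13.4% of all genes, with Bop1, Wdr12, Polr1b, Mybbp1a and Myc as the exceptions. No median carries a test, since the genes were chosen with results of these data known.

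**Figure D2:**
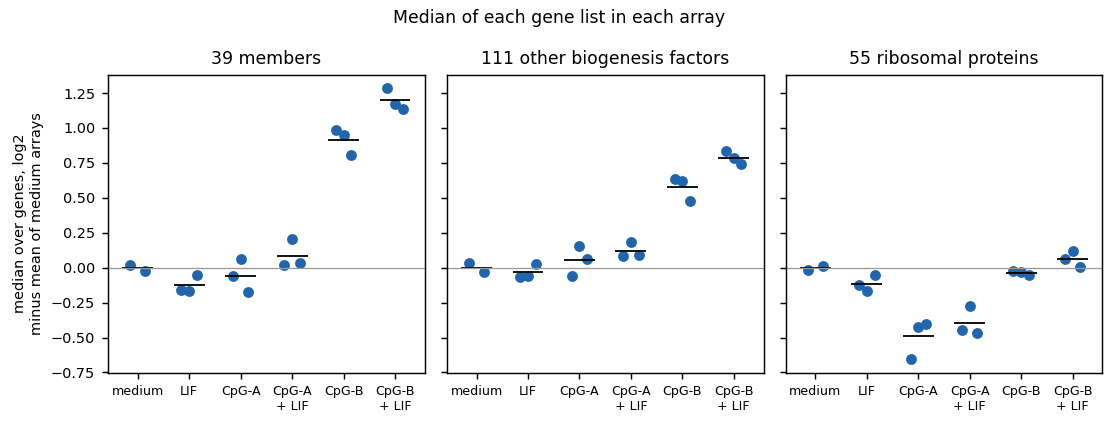
Median over the genes of 3 lists (the 39 measured genes, 111 other ribosome biogenesis factors and 55 ribosomal proteins) in each array, as log2 minus the mean of the medium arrays. Points are arrays and bars are group means. The first list reaches 0.81 to 1.29 in the arrays with CpG-B, and the ribosomal proteins lie between -0.65 and -0.27 in the arrays with CpG-A.

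The box C/D ribonucleoproteins guide ribose methylation of the precursor, with Fbl (fibrillarin) as the methyltransferase, Nop56 and Nop58 as core proteins and Rrp9 as a protein specific to the U3 particle, which acts in cleavage rather than methylation. In CpG-B vs medium, Nop56, Nop58 and Rrp9 were called with open directions, at 1.13 ± 0.18 (or -2.19), -1.56 ± 0.15 (or 1.76) and 1.18 ± 0.17 (or -2.14). Fbl was not called there, at 0.15 ± 0.16 (adjusted p = 0.601). In CpG-A vs medium Fbl read -1.03 ± 0.16, or 0.491-fold (adjusted p = 0.000158), while Nop56, Nop58 and Rrp9 were not called.

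Fbl (probe set 10447589) was -1.20, -1.06 and -0.81 in the CpG-A arrays, -1.11, -0.92 and -1.10 in the CpG-A + LIF arrays, 0.09, 0.29 and 0.07 in the CpG-B arrays and 0.51, 0.53 and 0.39 in the CpG-B + LIF arrays. In the LIF arrays it was -0.74, -0.69 and -0.23, and in the medium arrays 0.03 and -0.03. The CpG-A arrays with and without LIF were all below the medium and LIF arrays, and the CpG-B + LIF arrays were all above the CpG-B arrays. A second probe set of Fbl, with fewer listed accessions, read -0.52 in CpG-A vs medium and did not pass the test (adjusted p = 0.0822), so the size and the call of this difference depend on the probe set.

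Nop58, in contrast, was 0.17 and -0.17 in the medium arrays, 0.08, 0.29 and 0.00 in the CpG-A arrays, 1.93, 1.59 and 1.75 in the CpG-B arrays and 2.10, 1.93 and 1.96 in the CpG-B + LIF arrays under the widest gap. The CpG-A arrays overlapped medium, and the CpG-B arrays lay apart from both. The nearest reading of CpG-A vs CpG-B was -1.64 ± 0.14 (or 1.68, adjusted p = 1.1e-06). The size of the difference is thus close to 1.7 in either direction, and the direction drawn by the cut is 1 of 2 possible ones.

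The box H/ACA ribonucleoproteins convert uridines of the precursor to pseudouridine, and these proteins also stabilise telomerase RNA. Dkc1 (dyskerin) is the pseudouridine synthase, and Gar1, Nhp2 and Nop10 are its partners. All 4 read lower in CpG-A vs medium: Dkc1 by -0.94 ± 0.18 (adjusted p = 0.00121), Nhp2 by -0.99 ± 0.27 (adjusted p = 0.0137), Nop10 by -0.87 ± 0.18 (adjusted p = 0.00182) and Gar1 by -0.47 ± 0.12 (adjusted p = 0.011). No other role group of more than 1 gene was called as a whole there, where 16.7% of all genes were called and 7.15% read lower.

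In the CpG-A arrays Dkc1 was -1.17, -0.58 and -1.07, Nhp2 was -1.49, -0.96 and -0.50, and Nop10 lay between -1.10 and -0.51. Gar1 was -0.55, -0.44 and -0.41 there. All 12 of these values lay below both medium arrays, which spanned -0.16 to 0.16 for the same 4 genes. Such separation was common: under the widest gap every medium array was above every CpG-A array for 14 of the 39 genes and 22.3% of all genes. Without replicate 3 of medium, only 4 of the 8 calls of CpG-A vs medium remained, and Gar1, Nhp2, Wdr43 and Wdr75 were lost. Gar1 was lost also without replicate 1 of medium (adjusted p = 0.0816), Nhp2 without replicate 1 of CpG-A (adjusted p = 0.072) and Wdr75 without replicate 3 of CpG-A.

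In CpG-B vs medium the same group moved the other way in part. Dkc1 read 0.83 ± 0.18 higher (adjusted p = 0.00289) and Gar1 0.71 ± 0.12 higher (adjusted p = 0.000297), while Nhp2 read 0.39 ± 0.27 (adjusted p = 0.38) and Nop10 0.46 ± 0.18 (adjusted p = 0.0807). The CpG-B arrays of Dkc1 were 0.99, 0.95 and 0.55, and those of Gar1 were 0.81, 0.64 and 0.69, all above medium. Without replicate 3 of medium the Dkc1 call was lost (0.67, adjusted p = 0.0687), and without replicate 2 of CpG-B Nop10 was called (0.59, adjusted p = 0.0349).

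Between CpG-A and CpG-B all 4 H/ACA genes were called with open direction. Nearest readings were -1.18 ± 0.11 for Gar1 (or 2.14), -1.37 ± 0.24 for Nhp2 (or 1.95) and -1.33 ± 0.16 for Nop10 (or 1.99). For Dkc1 the nearest reading was 1.55 ± 0.16 (or -1.77). Both of its steps from medium were readable, at -0.94 for CpG-A and 0.83 for CpG-B, and they add up to the second of these readings, with CpG-A the lower.

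The small subunit processome assembles on the precursor as it is made. Utp4, Utp15, Nol11, Wdr43 and Wdr75 belong to the subcomplex that binds earliest, and Nol6, Nol10, Nop14, Noc4l, Utp20 and Rrp12 are further assembly factors. All 11 were called in CpG-B vs medium, 5 of them higher and 6 open. The readable ones were Wdr75 at 1.09 ± 0.14 (adjusted p = 2.6e-05), Nop14 at 1.05 ± 0.22, Noc4l at 0.89 ± 0.18, Utp15 at 0.68 ± 0.15 and Nol6 at 0.59 ± 0.14. Among the open ones, Wdr43 read 1.52 ± 0.13 (or -1.81, adjusted p = 1.5e-06) and Utp4 -1.64 ± 0.19 (or 1.69, adjusted p = 1.0e-05).

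Wdr43 was the 1 gene of the 39 that read higher in CpG-A vs medium, by 0.49 ± 0.13 (1.41-fold, adjusted p = 0.0147). Its CpG-A arrays were 0.43, 0.56 and 0.49 and its CpG-B arrays 1.56, 1.50 and 1.49, with medium at 0.21 and -0.21. The 3 groups did not overlap. Every CpG-A array was above every medium array for 5 of the 39 genes, against 18.6% of all genes. CpG-A vs CpG-B read -1.02 ± 0.12 (adjusted p = 1.9e-05), so the steps from medium to CpG-A and from CpG-A to CpG-B were both readable, both upward, and added up to 1.52.

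Wdr75, a partner of Wdr43 in the same subcomplex, read -0.52 ± 0.14 in CpG-A vs medium (0.697-fold, adjusted p = 0.0149). Its CpG-A arrays were -0.43, -0.49 and -0.64 and its CpG-B arrays 1.16, 1.12 and 0.99, while the CpG-A + LIF arrays were 0.08, 0.19 and -0.08. Here CpG-A lay below medium and CpG-B above it. Its CpG-A vs CpG-B difference had the smallest adjusted p of the 39 genes in that comparison, at -1.61 ± 0.13 (or 1.71, adjusted p = 8.0e-07). For Utp4 the nearest reading of CpG-B vs medium pointed down, but the step from medium to CpG-A was 0.45, which was not called, and the array values under the widest gap were 1.80, 1.60 and 1.66 in CpG-B.

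For the large subunit, the PeBoW complex of Pes1, Bop1 and Wdr12 is required for precursor cleavage. Pes1 read 0.90 ± 0.21 higher in CpG-B vs medium (1.87-fold, adjusted p = 0.00379), with CpG-B arrays at 1.10, 0.97 and 0.64. Bop1 read 0.43 ± 0.15 and was not called (adjusted p = 0.0548). Wdr12 read -1.36 ± 0.26 (or 1.96, adjusted p = 0.000787), and CpG-A vs CpG-B read 1.09 ± 0.23, the only one of the 36 called there that read higher in CpG-A, a direction that depends on the probe set.

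Wdr12 has a second probe set with as many listed accessions, which read 1.46 in CpG-B vs medium where the one used read -1.36. Both lie beyond the limit on direction, so neither probe set settles it. In CpG-A vs CpG-B the second probe set read 1.37, also beyond the limit, so the direction read from the first is not one that both give. The array values of the one used were -1.25, -1.34 and -1.50 in CpG-B and -0.25, 0.00 and -0.57 in CpG-A.

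Of the other 7 large subunit genes, 5 were called in CpG-B vs medium. Ddx18, an RNA helicase, read 1.06 ± 0.21 higher, Rrs1, a partner of Rpf2 in large subunit assembly, read 1.00 ± 0.30 higher, and Nol9, a kinase that acts in spacer processing, read 0.64 ± 0.18 higher. Nop2, an RNA cytosine methyltransferase, read 1.30 ± 0.20 (or -2.02) and Noc3l, a further assembly factor, 1.24 ± 0.20 (or -2.08). Nop16 (0.36 ± 0.22, adjusted p = 0.316) and Nol8 (0.49 ± 0.17, adjusted p = 0.0525) were not called. All 7 were called in CpG-A vs CpG-B, 6 of them lower in CpG-A and Rrs1 open. Ddx18 has a second probe set with as many listed accessions, which read 1.41 in CpG-B vs medium and -1.28 in CpG-A vs CpG-B. Both lie beyond the limit on direction, so whether the direction of Ddx18 can be read depends on the probe set. In CpG-B vs medium, Rrs1 lost its call without replicate 1 or 3 of medium or without replicate 1 or 2 of CpG-B. Nol9 lost it without replicate 1 of medium or of CpG-B, and Nol6 without replicate 1 of medium. In CpG-A vs CpG-B, Pes1 lost its call without replicate 1 or 2 of CpG-B or replicate 1 of CpG-A, and Nol9 without replicate 1 of CpG-B or replicate 3 of CpG-A.

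RNA polymerase I was represented by its catalytic core, Polr1a and Polr1b. Polr1a read 1.15 ± 0.16 in CpG-B vs medium (or -2.17, adjusted p = 4.3e-05) and -1.62 ± 0.14 in CpG-A vs CpG-B (or 1.71). Its CpG-B arrays were 1.36, 1.07 and 1.02, its CpG-A arrays -0.71, -0.24 and -0.43 and its medium arrays 0.14 and -0.14. Polr1b read 1.21 ± 0.25 in CpG-B vs medium (or -2.11, adjusted p = 0.00144), and 1.47 ± 0.22 in CpG-A vs CpG-B (or -1.85). Its arrays were drawn at -1.70, -2.31 and -2.32 in CpG-B because the widest gap fell above medium, a gap of 0.94 only. So the nearest reading and the cut give opposite directions for Polr1b, and neither can be preferred from the deposited digits. Without a call in CpG-A vs medium (-0.46 and -0.64, adjusted p above the threshold), both subunits had unadjusted p under 0.05 there.

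Among other nucleolar proteins, Ncl (nucleolin) and Npm1 (nucleophosmin) are abundant chaperones of the nucleolus. Ncl read 1.08 ± 0.14 higher in CpG-B vs medium, or 2.11-fold (adjusted p = 2.2e-05), with arrays at 1.14, 1.10 and 1.00 against 0.13 and -0.13 in medium. In CpG-A its arrays were -0.02, 0.28 and 0.29, which overlapped medium. Npm1 read 0.91 ± 0.15 higher (1.87-fold, adjusted p = 0.000202), with CpG-B arrays at 0.92, 0.78 and 1.02 and CpG-A arrays at -0.14, 0.01 and 0.13. Both also read lower in CpG-A vs CpG-B, by -0.90 ± 0.12 and -0.91 ± 0.13. So Ncl and Npm1 read higher with CpG-B, with the reading of Ncl just under the limit on direction. The same digits would also allow decreases there, of -2.24 for Ncl and -2.42 for Npm1. The CpG-A arrays of both genes lay among or next to the medium arrays.

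Ddx21, a helicase that couples polymerase I transcription to processing, read 1.47 ± 0.17 in CpG-B vs medium (or -1.85, adjusted p = 8.2e-06). Its CpG-B arrays were 1.44, 1.63 and 1.35 and its CpG-A arrays 0.34, 0.23 and 0.29. Nolc1, a chaperone of small nucleolar ribonucleoproteins, read 1.23 ± 0.20 (or -2.09). Usp36, a nucleolar deubiquitinase, read 0.73 ± 0.15 higher, and Nkrf, a nucleolar protein known too as a repressor of NF-kB targets, was not called at 0.55 ± 0.24 (adjusted p = 0.129). Of these 4, the open ones were Ddx21 and Nolc1.

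Mybbp1a, a nucleolar protein that binds MYB and has been tied to restraint of ribosomal DNA transcription, read -1.50 ± 0.16 in CpG-B vs medium (or 1.82, adjusted p = 4.1e-06). With LIF in both groups, CpG-B + LIF vs LIF read -0.94 ± 0.14 lower (or 2.38, adjusted p = 5.6e-05). Its arrays were drawn at -1.53, -1.26 and -1.71 in CpG-B, -0.91, -1.18 and -0.89 in CpG-B + LIF and 0.23, 0.22 and 0.18 in CpG-A. The CpG-B arrays stood apart from the 11 arrays without CpG-B. It was the 1 gene of the 39 that read lower in CpG-B + LIF vs LIF, and an increase of 5.21-fold would give the same digits.

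**Figure D3:**
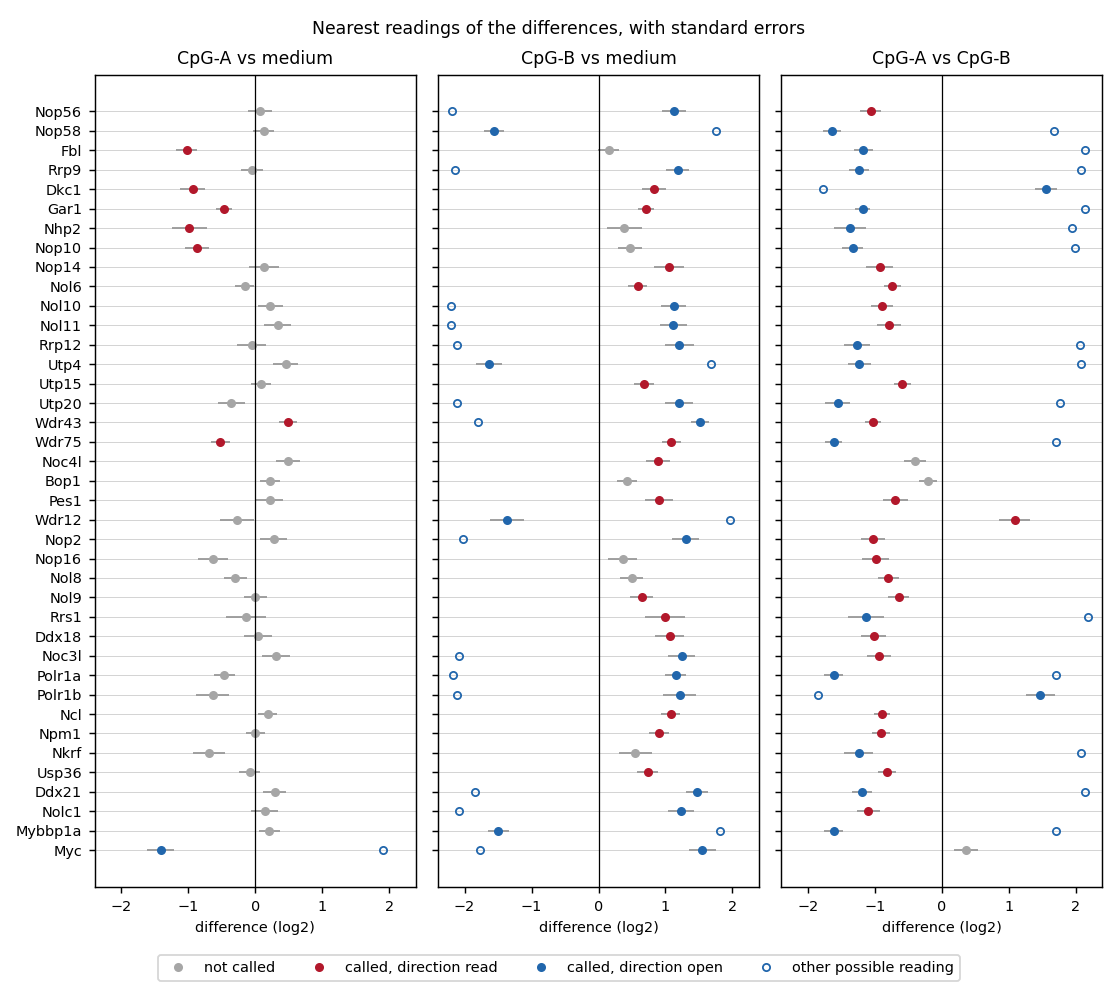
Nearest readings of the log2 difference with SE for the 39 genes in each CpG class against medium and in CpG-A vs CpG-B. Grey points were not called, red points were called with a readable direction, filled blue points were called with open direction and open blue circles mark their other possible reading. In CpG-B vs medium the red points lie between 0.59 and 1.09.

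Myc (probe set 10424400) differed from medium with both CpG classes, and its direction could not be read. CpG-A vs medium read -1.41 ± 0.20 (or 1.91, adjusted p = 6.9e-05), and CpG-B vs medium read 1.55 ± 0.20 (or -1.77, adjusted p = 2.6e-05). CpG-A vs CpG-B read 0.36 (or -2.96) and was not called (adjusted p = 0.227). If its nearest reading holds, both classes were below medium, at -1.41 and -1.77, or both above it, at 1.91 and 1.55. If its other reading holds, CpG-A was below medium at -1.41 and CpG-B above it at 1.55, which the deposited digits allow as well. With LIF in both groups, CpG-A + LIF vs LIF read -1.02 ± 0.18 lower (0.494-fold, or 4.94-fold higher by its other reading, adjusted p = 0.000452).

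Under the widest gap the Myc arrays were -0.06 and 0.06 in medium, 0.36, -0.24 and -0.04 in LIF, -1.18, -1.62 and -1.43 in CpG-A and -1.65, -1.65 and -2.03 in CpG-B. They were -0.72, -0.89 and -1.36 in CpG-A + LIF and -1.46, -1.52 and -1.64 in CpG-B + LIF. Under this cut, the 12 arrays with CpG of either class were apart from the 5 without, and the cut itself sets that CpG-A and CpG-B lie on the same side. CpG-A + LIF vs CpG-B + LIF read 0.55 ± 0.18 (adjusted p = 0.0431), a call that was lost when any of 5 of the 6 arrays compared was left out (0.41 to 0.73 over the 6) and with array median scaling (0.52, adjusted p = 0.0538).

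For open directions, the steps through CpG-A gave a further description, chosen after the data were seen and with no test. Of the 18 open genes of CpG-B vs medium, 8 had both steps, medium to CpG-A and CpG-A to CpG-B, within the limit on direction. The steps summed to an increase for 7 of them (Nop56, Nop2, Nol10, Nol11, Wdr43, Nolc1 and Noc3l) and to a decrease for Wdr12. Over all genes the same path gave 197 increases and 211 decreases among 408 open genes. Under the widest gap, 28 of the 32 called genes were higher with CpG-B (9.27% of all genes were called higher under that setting) and 4 were lower (9.36%), namely Wdr12, Polr1b, Mybbp1a and Myc.

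With LIF present in both groups, all 39 genes were called in CpG-B + LIF vs LIF, against 25.4% of all genes, with 11 higher (10.5%), 1 lower (9.02%) and 27 open (5.94%). The 7 genes that had missed the test in CpG-B vs medium were among them: Fbl read 1.03 ± 0.14, Nop16 1.03 ± 0.20, Nol8 1.10 ± 0.15, Nkrf 1.10 ± 0.21, Bop1 0.99 ± 0.13 and Nop10 0.83 ± 0.16 higher, and Nhp2 was open at 1.23 ± 0.24 (or -2.10). The smallest adjusted p values belonged to Wdr43 (-1.62 ± 0.12, or 1.70) and Gar1 (1.39 ± 0.11, or -1.94). In CpG-A + LIF vs CpG-B + LIF, 38 were called against 16.9% of all genes, with 13 lower in CpG-A + LIF (8%), 1 higher (5.63%) and 24 open (3.27%). The exception was Nol11.

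In CpG-A + LIF vs LIF, 11 of the 39 were called against 17.4% of all genes, with 8 higher (6.23%), 3 lower (7.29%) and 0 open (3.85%, with 20 of the 39 at an unadjusted p under 0.05 by limma). The higher ones were Utp4 at 0.72 ± 0.17 (adjusted p = 0.0058), Nol11 at 0.71 ± 0.18, Nop2 at 0.67 ± 0.18, Noc3l at 0.56 ± 0.18, Nop58 at 0.52 ± 0.14, Rrp9 at 0.50 ± 0.15, Wdr43 at 0.48 ± 0.12 and Utp15 at 0.40 ± 0.13. The lower ones were Myc, Nop10 at -0.60 ± 0.16 and Fbl at -0.49 ± 0.14. The Utp4 arrays were 0.63, 0.54 and 1.03 in CpG-A + LIF against -0.13, 0.36 and -0.16 in LIF, and did not overlap. Every CpG-A + LIF array was above every LIF array for 12 of the 39 genes under the widest gap, against 14.7% of all genes. Left out in turn, the 6 arrays gave 6 to 9 calls. There were 6 without replicate 2 of LIF, 7 without replicate 1 of CpG-A + LIF and 7 without replicate 2 of CpG-A + LIF. Noc3l lost its call in all 6 of these fits, Utp15 in 5, Rrp9 in 4, and Nop2 and Fbl in 3 each. CpG-A vs medium and CpG-A + LIF vs LIF use different arrays throughout. Of the 4 H/ACA genes, only Nop10 was called in the latter, and Dkc1, Gar1 and Nhp2 were not.

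The comparisons of LIF within a culture condition asked whether the cytokine itself moved the machinery. In CpG-B + LIF vs CpG-B, 0 of the 39 genes were called by limma, against 0.0608% of all genes (0.0152% higher, 0.0304% lower and 0.0152% open), and 14 had an unadjusted p under 0.05. The readings of 37 of the 39 were above 0, between -0.05 and 0.51 with a median of 0.33, where the median over all genes was 0.00. Mybbp1a read 0.51 ± 0.14 (adjusted p = 0.273), Gar1 0.39 ± 0.11 (adjusted p = 0.291), Bop1 0.46 ± 0.13 (adjusted p = 0.308) and Nolc1 0.51 ± 0.18 (adjusted p = 0.425). None of these passes the correction over all genes. Every CpG-B + LIF array was above every CpG-B array for 22 of the 39 genes, against 7.18% of all genes.

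In CpG-A + LIF vs CpG-A, 0 genes were called by limma against 0.00506% of all genes, 5 had an unadjusted p under 0.05, and 31 of the 39 readings were above 0, with a median of 0.17. Wdr75 had the largest of these readings at 0.59 ± 0.13 (adjusted p = 0.156). Its CpG-A + LIF arrays did not overlap its CpG-A arrays. In LIF vs medium the median reading was -0.08, and 12 of the 39 were above 0. Fbl had the smallest p there at -0.55 ± 0.16 (adjusted p = 0.147), followed by Rrp9, Nol6 and Gar1, which read -0.44, -0.36 and -0.29. Without replicate 3 of LIF, 1 gene was called in place of 0.

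**Figure D4:**
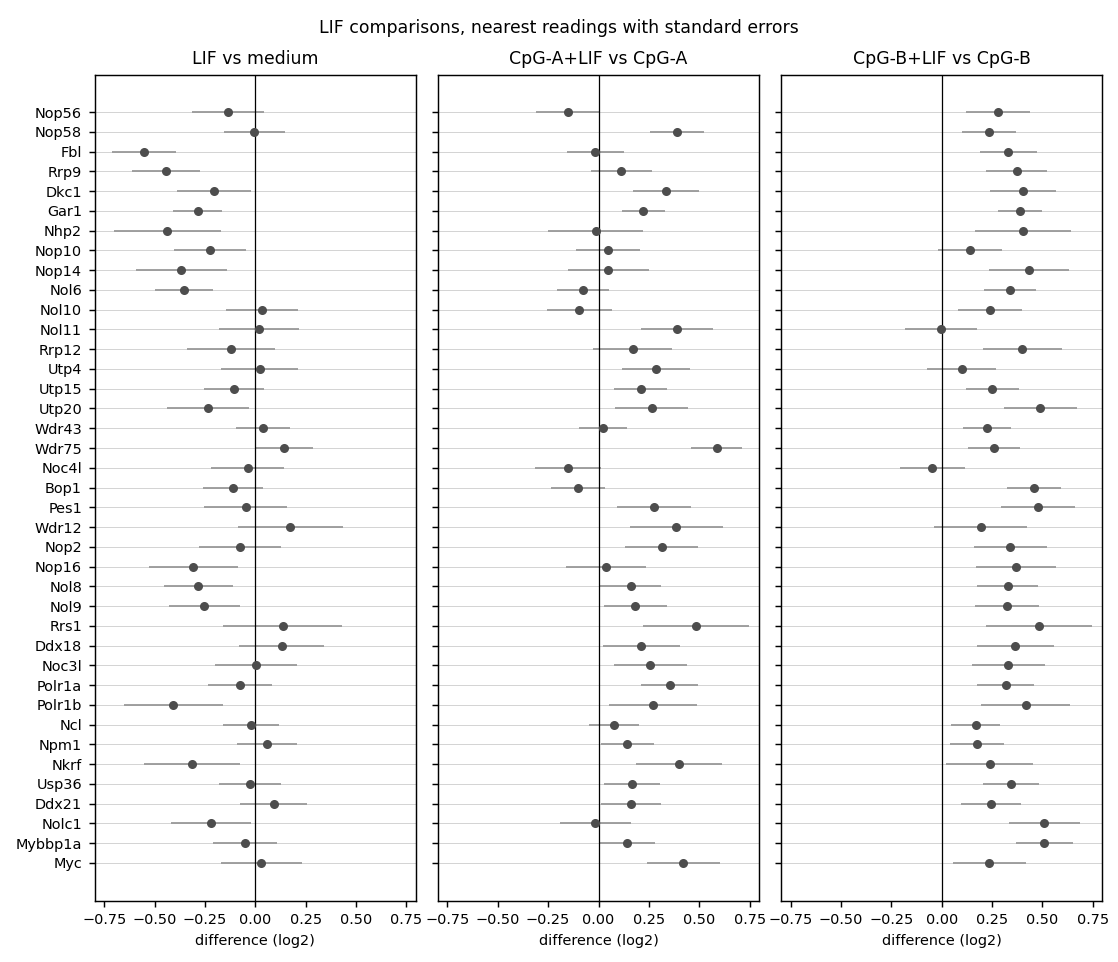
Nearest readings of the log2 difference with SE for the 39 genes in LIF vs medium, CpG-A + LIF vs CpG-A and CpG-B + LIF vs CpG-B. No point passed the test after adjustment over all genes, and 37 of the 39 points of CpG-B + LIF vs CpG-B lie above 0, with a median of 0.33.

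Whether CpG had another effect in the presence of LIF was tested as an interaction. With CpG-A, 0 genes were called by limma, against 1.41% of all genes (0.0608% higher, 0.0557% lower and 1.29% open), and 6 had an unadjusted p under 0.05. With CpG-B, 11 were called, against 2.26% of all genes. Both counts come from 1 nearest reading minus another, tested against 0 without bringing the result back to its reading closest to 0. Of these, Fbl was higher with LIF (0.182% of all genes were called higher and 0.172% lower) and 10 were open (1.9% of all genes). The Fbl call was lost in 8 of 11 fits without 1 array and with its other probe set. Its adjusted p was taken over all genes, and so over such subtractions too. In these 10 except Gar1, the nearest readings with and without LIF had opposite signs, as for Wdr43 at 1.52 without and -1.62 with LIF. For Myc the subtraction gave -3.11, and the same digits allow 0.21, its value under the widest gap. The test against 0 therefore cannot decide whether these genes had an interaction, and the 11 and the 2.26% are not counts of interactions. Under the widest gap, where differences add up, the interactions of the 39 genes lay between -0.02 and 0.88. By limma 0 of the 39 were called there, and 52 of all genes. With the nearest readings 19 of the 39 had an unadjusted p under 0.05, a count with the same limit.

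The rest of the pathway was given by 111 other ribosome biogenesis factors from a list made with earlier results of these data known. In CpG-B vs medium, 64 of them (57.7%, against 19.2% of all genes) were called, with 47 higher, 1 lower and 16 open, and the median reading was 0.56. With CpG-A against medium 15 were called (13.5%, against 16.7% of all genes), with 10 higher, 4 lower and 1 open. In CpG-A vs CpG-B 62 were called (55.9%, against 13% of all genes). Of these, 48 were lower (6.14% of all genes), 0 higher (4.42%) and 14 open (2.4%), with 78 at an unadjusted p under 0.05 in either direction by limma. Heatr1, a member of the Utp4 subcomplex, read 1.06 higher in CpG-B vs medium (adjusted p = 9.0e-06) and -1.04 lower in CpG-A vs CpG-B. Mdn1, the giant ATPase that strips assembly factors from the large subunit, read 1.56 (or -1.76) with open direction in CpG-B vs medium, and the widest gap gives the second reading. Ddx24, a helicase, read 1.01 higher in CpG-A vs medium, and Nop53, a large subunit factor, -0.70 lower. Per array, the median of this list was 0.64, 0.62 and 0.48 in CpG-B and -0.06, 0.15 and 0.07 in CpG-A, so its medians with CpG-B were above 0 and below those of the 39 genes.

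The further subunits and factors of RNA polymerase I were 18 genes. Of these, 5 were called in CpG-B vs medium (27.8%, against 19.2% of all genes), with 4 higher and 1 open, among them Taf1d, a subunit of the promoter selectivity factor, at 1.06 higher (adjusted p = 1.5e-05), and Rrn3, the initiation factor, at 0.52 higher (adjusted p = 0.0459). In CpG-A vs medium 1 was called (5.56%, against 16.7% of all genes), Polr2e, a subunit shared by the RNA polymerases, at -0.64. Their median was 0.17 with CpG-B and -0.01 with CpG-A.

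Ribosomal proteins, the other building material of the ribosome, followed another pattern. Of 55 genes, 27 passed the test in CpG-A vs medium (49.1%, against 16.7% of all genes), with 22 lower, 1 higher and 4 open and a median of -0.51, while 3 were called in CpG-B vs medium (5.45%, against 19.2% of all genes), where the median was -0.04. Rplp0, of the ribosomal stalk, read -0.84 lower with CpG-A (adjusted p = 0.000213), and Rpl4 -0.65. Per array the median of this list was -0.65, -0.42 and -0.40 in CpG-A and -0.02, -0.03 and -0.05 in CpG-B. So without LIF the assembly factors departed from medium mainly with CpG-B and the ribosomal proteins mainly with CpG-A. The direct comparison of the 2 classes was called for 27 ribosomal proteins (49.1%, against 13% of all genes), 25 of them lower with CpG-A and 2 open. With LIF in both groups, 18 were called with CpG-A (32.7%, against 17.4% of all genes), 17 lower and 1 open. With CpG-B 15 were called there (27.3%, against 25.4% of all genes), 11 higher, 1 lower and 3 open.

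In the network around Myc, 11 partner and antagonist genes were measured. Against medium, 5 were called with CpG-A (45.5%, against 16.7% of all genes), with 1 higher, 2 lower and 2 open, and 4 with CpG-B (36.4%, against 19.2%), with 1 higher, 1 lower and 2 open. Max, the obligate partner of Myc, read 0.61 higher in CpG-A vs medium (adjusted p = 0.00291) and 0.62 higher in CpG-A vs CpG-B. Mycl, a paralogue of Myc known for its part in dendritic cells, read -1.02 lower with CpG-A (adjusted p = 0.000274) and -1.50 (or 1.82) with CpG-B, the latter open. Mxi1, an antagonist that competes for Max, read lower with both, at -0.46 and -0.63. The antagonist Mxd1 read 0.64 higher with CpG-B (adjusted p = 0.00374) and was open with CpG-A at -1.39 (or 1.94). Mxd4, of the same family, was open with both, at -1.41 (or 1.91) with CpG-A and 1.65 (or -1.67) with CpG-B. Of 24 cell cycle genes, 14 were called in CpG-B vs medium (58.3%, against 19.2% of all genes). Of these, 5 were higher (6.94% of all genes), 2 lower (7%) and 7 open (5.27%). In CpG-A vs medium 9 were called (37.5%, against 16.7% of all genes), with 1 higher (4.91%), 7 lower (7.15%) and 1 open (4.64%).

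Promoter windows of RefSeq (build GRCm38.p6, from 250 bases before to 50 bases after the start of transcription) were matched by symbol for 32 of the 39 measured genes, as 35 windows of 300 bases. The letters CACGTG, the E-box form to which MYC and MAX bind and which reads the same on both strands, were found in 7 of the 35 windows (20.0%), against 7.15% of all 32851 windows and 22.9% of 105 windows of the other biogenesis factors. The looser CANNTG, which includes CACGTG, was found in 65.7% of the members' windows and 72.3% of all windows. The median GC content was 58.7% in the members' windows and 52.7% in all windows. A match is a run of letters and not a measured binding site. Sequences are printed for the 5 genes whose match lies within the stretch from 120 bases before to 30 bases after the start. All 5 were called in CpG-A vs CpG-B with a nearest reading below 0. That does not set them apart, since 36 of the 39 genes were called there and only 4 of the 39 readings were above 0. The capitals mark CACGTG:
Nol11: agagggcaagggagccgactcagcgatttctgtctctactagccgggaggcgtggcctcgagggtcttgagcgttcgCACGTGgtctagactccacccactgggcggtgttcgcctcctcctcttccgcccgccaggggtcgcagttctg
Nop2: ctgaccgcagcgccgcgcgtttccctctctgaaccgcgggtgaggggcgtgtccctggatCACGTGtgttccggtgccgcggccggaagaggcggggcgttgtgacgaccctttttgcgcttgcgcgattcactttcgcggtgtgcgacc
Pes1: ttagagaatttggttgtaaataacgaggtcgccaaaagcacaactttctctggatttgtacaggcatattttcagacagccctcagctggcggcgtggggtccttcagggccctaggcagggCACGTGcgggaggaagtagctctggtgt
Utp4: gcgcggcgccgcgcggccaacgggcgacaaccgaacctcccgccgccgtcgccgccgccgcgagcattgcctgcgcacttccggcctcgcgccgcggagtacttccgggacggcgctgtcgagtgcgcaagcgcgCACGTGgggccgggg
Wdr43: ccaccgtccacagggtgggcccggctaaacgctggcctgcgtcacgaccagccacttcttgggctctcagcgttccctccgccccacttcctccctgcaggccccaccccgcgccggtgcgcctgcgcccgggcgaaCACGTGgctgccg
The stretches lie at chr11:107189352-107189501 on the minus strand for Nol11, and on the plus strand at chr6:125131763-125131912 for Nop2, chr11:3963855-3964004 for Pes1, chr8:106893520-106893669 for Utp4 and chr17:71616095-71616244 for Wdr43. The match begins 43 bases before the start in Nol11 and 60 bases before it in Nop2, and at base 3, 16 and 18 of the transcript in Pes1, Utp4 and Wdr43. Mybbp1a and Utp20 hold the same letters further into the transcript. In CpG-A vs CpG-B, Nol11, Nop2, Pes1 and Wdr43 read -0.78 ± 0.18, -1.02 ± 0.18, -0.69 ± 0.18 and -1.02 ± 0.12 lower, and Utp4 read -1.23 ± 0.17 (or 2.09) with open direction. Ncl, whose window lacks these letters, read -0.90 ± 0.12 in the same comparison.

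Some genes that mark cell types were called between the same groups. Of 13 pDC markers, 7 were called in CpG-A vs medium, against 16.7% of all genes (3 higher, 2 lower and 2 open). In CpG-B vs medium 8 were called, against 19.2% of all genes (2 higher, 2 lower and 4 open). In CpG-A vs CpG-B 10 were called, against 13% of all genes (6 higher, 1 lower and 3 open). In CpG-A vs CpG-B, 2 of 6 B cell markers, 1 of 5 T and NK cell markers, 2 of 5 conventional dendritic cell markers, 1 of 4 macrophage and monocyte markers, 0 of 6 neutrophil markers (1 at an unadjusted p under 0.05 by limma) and 1 of 2 erythroid markers were called. These small counts stand beside the same 13% of all genes. In CpG-A vs medium the counts in the same order were 2, 0, 2, 3, 1 and 0, against 16.7% of all genes. In CpG-B vs medium they were 1, 2, 3, 2, 2 and 1, against 19.2% of all genes. The called macrophage and monocyte markers, 3 and 2 in these comparisons, were all open in direction. Summed levels, and which of these markers are at or near 0, cannot be told from digits without decimal marks. The part of cell composition in the differences above was not tested.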

How the data were processed

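Affymetrix arrays were made from total RNA extracted with a column microkit. Per the submitters' processing notes the values were made with RMA (background correction, normalization between arrays and probe summary), with no version given in the sources used here. Values deposited by the authors are in a unit of no fixed scale. They are the digits of linear intensities without their decimal marks (1 of 419560 cells kept its mark, 90% have 10 digits and 9.04% have 9).

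From these, log2 was taken modulo 3.32. Of 24680 probe sets, 21354 had 1 symbol, 1275 several and 2051 none. A gene was represented by the single-symbol probe set with the most listed accessions, and no gene was filtered. Each array was placed at its circular group mean plus its shortest deviation. The test was a limma fit (version 3.58.1, R 4.3.3) to the 17 arrays with a mean for each group (11 residual degrees of freedom), empirical Bayes moderation and Benjamini-Hochberg adjustment over 19751 genes, called at 0.05. For an interaction, 1 nearest reading was subtracted from another, and the result was not brought back to its reading closest to 0. Its direction was read only where both were within the limit of 1.11, a limit set with results in view. Precision is limited by the number of arrays.

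The genes and all lists were chosen with earlier results of these data known. Eligible for array values were Myc, up to 6 called genes with the smallest adjusted p in each comparison and up to 4 genes by role that carry a contrast, and from the pathway list up to 6 called genes per comparison. Further genes in the text were chosen after their values were seen. Alternatives covered the unfolding, scaling, samples in the fit, variance moderation, probe set choice, replicate block, single arrays and the motif.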

Additional observations from a re-analysis of the deposited data

Results flagged for a closer look

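Fibrillarin (Fbl) was flagged because its CpG-B effect differed between cultures with and without LIF in a test of the interaction. The difference was 0.88 ± 0.21 (adjusted p = 0.0315 in limma over all genes), from a CpG-B effect of 1.03 with LIF and 0.15 without. The adjustment ranked it among the p-values of all genes, with 446 called and 376 of them open. P-values from subtractions not brought back to the reading closest to 0 can lower the adjusted p of other genes. The 0.0315 therefore cannot decide whether Fbl had an interaction. All 3 LIF arrays lay below both medium arrays, and all 3 CpG-B + LIF arrays above all 3 CpG-B arrays. When the values were unfolded at the widest gap the difference was again 0.88, with an adjusted p of 0.119. The call was lost too with the other probe set of Fbl and in a fit of only the groups compared. It was lost in 8 of the 11 fits that left out 1 array, namely without replicate 1 or 3 of medium, 1 or 2 of LIF, 1 or 3 of CpG-B, or 1 or 2 of CpG-B + LIF.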

How the results depend on the processing

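The calls of CpG-B vs medium (29 to 34 of 39 genes), CpG-A vs CpG-B (34 to 36), CpG-A + LIF vs CpG-B + LIF (36 to 38) and CpG-B + LIF vs LIF (39) stayed within 1.5 times the main count under every alternative run. All 14, 19 and 7 readable directions of CpG-B vs medium, CpG-A vs CpG-B and CpG-A vs medium kept their sign. Every alternative used the same digits without decimal marks, so a kept sign cannot show that a reading is right and its opposite reading wrong. Leaving out 1 array gave 4 to 10 calls for CpG-A vs medium, 0 to 1 for LIF vs medium and 6 to 9 for CpG-A + LIF vs LIF, and the cause was not tested beyond the loss of an array. The interaction of LIF with CpG-B had 11 calls, and 0 under the widest gap. For all of the 11 but Fbl and Gar1, nearest readings of opposite sign were subtracted without bringing the result back to its reading closest to 0. The 11 is therefore not a count of interactions, under the main fit or an alternative that keeps the nearest readings. Counting each named gene's difference once under each alternative, 584 such checks kept their side of the threshold, 18 lost the call, 1 gained it and none with a readable direction turned. Of the 35 promoter windows, 7 held CACGTG and 23 held CANNTG. Open readings changed sign when an array was left out, as for Wdr43 in CpG-B vs medium (-1.60 to 1.53). With the replicate block, calls numbered 10 in CpG-A vs medium, 32 in CpG-B vs medium, 36 in CpG-A vs CpG-B, 11 in CpG-A + LIF vs LIF and 10 in the interaction of LIF with CpG-B. The labels do not say what arrays of the same replicate number share. Deviations of same-numbered arrays correlated between -0.08 and 0.24 (40 pairs), and those of arrays with other numbers between -0.15 and 0.11 (80 pairs). Of the 17 arrays, 14 were closest to one of their own number. That is a hint from the data that same-numbered arrays were alike, and the main fit held no term for it. The planned fit on recovered decimal marks was not run, because no power of 10 stood out in the digits. Signal over background is unknown.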
